A study of Mus musculus with 57 samples.

Results

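The genes described here are 10 costimulatory and immune checkpoint molecules, taken by name from a fixed list: Cd80, Cd86, Icosl, Cd40, Cd274, Vsir, Havcr2, Lag3, Pdcd1 and Cd200r1. All 10 were found in both deposited count tables, of 50565 genes in one and 53278 in the other, and all 10 passed the filter on low counts, which kept 31709 and 15857 genes. They were measured by RNA sequencing of CD11b-positive brain cells, called microglia in the labels, of adult wild-type (WT) mice and of littermates deficient in the nucleotide receptor P2RY12 (KO). One experiment, called the sex experiment here, had 4 WT and 5 KO samples of males and as many of females, with no treatment label of their own, although the injection protocol is attached to every sample. The other, the LPS experiment, had 8 KO libraries with LPS and 8 marked ns, and 9 WT libraries with LPS and 8 marked ns. LPS (lipopolysaccharide), a molecule of the bacterial outer membrane that sets off inflammation, was injected into the peritoneum at 1 mg/kg, and ns is used as written because the labels do not define it. The labels give no sex for the LPS experiment, and the time after injection and the cells in which P2RY12 was deleted are not given in the sources used here.

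T cells need a second signal beside the antigen to become active, and antigen-presenting cells deliver it through ligands such as CD80, CD86 and ICOS ligand. Checkpoint ligands and receptors such as PD-L1, VISTA, TIM-3, LAG-3 and PD-1 dampen immune activation. Microglia, the resident macrophages of the brain, are known to carry several of these molecules, and inflammatory stimuli are known to raise CD40 and PD-L1 on macrophages.

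LPS moved the same 4 genes in both genotypes: Cd274 and Cd40 rose, and Vsir and Cd200r1 fell. In WT this holds with 4 libraries set apart that go against their labels, and no gene was called with them as labelled. With these libraries set apart, 28.3% of all genes were called with LPS in KO and 30.3% in WT. Loss of P2RY12 went with more Lag3 RNA, 1.504-fold (log2 0.59 ± 0.10, SE) over both sexes in the sex experiment, where 0.432% of all genes were called. No member was called in the test of whether the response to LPS differed between the genotypes, and none was called between the sexes.

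Several libraries of the LPS experiment have to be known before its values are read. Library set and library number are read from the library names, and the 4 WT libraries of library number 2 went against their labels in P2ry12 and in Saa3, an acute-phase gene that LPS raises. Saa3 stood at 1781 and 2491 CPM (the counts-per-million level on scaled library totals) in WT ns 1 and WT ns 5, against 1.52 to 64.3 CPM in the other 6 libraries labelled WT ns. It stood at 1.59 and 3.21 CPM in WT LPS 1 and WT LPS 6, against at least 1418 CPM in the others labelled WT LPS. These 4 libraries are shown apart and enter no comparison unless stated. A further pattern was that 6 libraries, all of the second of 2 library sets, stood apart on the first principal component of all tested genes (41.8% of the variance): KO LPS 5, KO ns 5, KO ns 6, WT LPS 6, WT LPS 7 and WT ns 5. In these the mitochondrial gene mt-Co1 stood at 7729 to 42253 CPM, against 2801 to 6794 CPM in the other 26. The microglial marker Sall1 stood at 113.2 to 446.6 CPM, against 470.4 to 1714 CPM. What sets these libraries apart was not tested. The changes with LPS within each genotype are given with and without the 6 libraries, except for the fold changes of Cd80, Havcr2 and Pdcd1. WT LPS 8 and WT LPS 9 differed by little more than sampling noise and were counted as 1 sample, which left 6 WT ns, 6 WT LPS, 8 KO ns and 8 KO LPS samples.

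Totals ran from 58.5 to 318.5 M counts in the sex experiment and from 15.9 to 168.4 M counts in the LPS experiment. P2ry12 stood at 3007 to 5928 CPM in WT and 309.3 to 526.4 CPM in KO samples of the sex experiment, and at 3516 to 5406 CPM in WT ns and 585.2 to 1243 CPM in KO ns. The list of 10 microglial markers, of which 9 are in the table of the sex experiment, summed to at least 16964 CPM in every library. Cd3e, which T cells carry, was at most 1.65 CPM in any sample of the sex experiment. In the LPS experiment it was at most 0.227 CPM and did not pass the filter on low counts. The whole list of 12 T and NK cell markers, which includes Cd3e, summed to 66.8 to 349.3 CPM in the sex experiment. In the LPS experiment that list summed to 3.32 to 441.2 CPM. Nothing in the labels says that the libraries came from separate preparations, so p-values measure the spread between these samples. In bulk RNA, fewer cells of a type and less RNA per cell cannot be told apart.

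The members differ widely in level. Per kilobase of exon (exon lengths from GENCODE vM21, a reference that need not be the one behind the counts), Vsir was highest in WT ns at 497.4 ± 92.5 CPM per kb (mean ± SD, n = 6). Lag3 at 142.3 ± 36.7, Havcr2 at 124.2 ± 16.2, Cd86 at 68.3 ± 9.58 and Icosl at 44.2 ± 3.78 CPM per kb followed, and Lag3 and Havcr2 did not differ beyond their spread. Cd200r1 at 7.00 ± 0.805 and Cd80 at 5.87 ± 0.420 CPM per kb did not differ beyond their spread either. Cd274 at 4.56 ± 0.288, Pdcd1 at 1.28 ± 0.499 and Cd40 at 0.624 ± 0.191 CPM per kb were lowest. The checkpoint genes therefore included both the highest level of the group, that of Vsir, and one of the lowest, that of Pdcd1. In WT LPS the order of the means changed in that Cd274, at 17.5 ± 2.52 CPM per kb, stood above Cd80 and Cd200r1. The mean of Cd40, at 2.35 ± 2.14, stood above that of Pdcd1 at 0.582 ± 0.792. Lag3, at 75.1 ± 14.0 CPM per kb, came behind Havcr2 at 113.2 ± 26.3, and Cd80 at 8.07 ± 4.20 came before Cd200r1 at 3.95 ± 1.46. Cd40 and Pdcd1, Lag3 and Havcr2, and Cd80 and Cd200r1 did not differ beyond their spread. Cd86 also had a higher mean than Lag3, at 115.4 ± 110.6 CPM per kb, but its place rests on 1 library of the 6 samples. That library, WT LPS 7, had 1248 CPM of Cd86, against at most 280.4 CPM in the others. It also had 22.2 CPM of Cd40, against at most 8.52 CPM in the others.

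Cd274 and Vsir, a checkpoint ligand that rose with LPS and one that fell, are shown here by the bases before their start sites, since the RefSeq promoter table (GRCm38.p6) holds 6 of the 10 members: Cd274, Cd80, Havcr2, Vsir, Pdcd1 and Icosl. The stretch of Cd274 is chr19:29367188-29367437 and that of Vsir chr10:60346601-60346850, both on the plus strand and 250 bases long. Capitals mark GC boxes, the letters GGGCGG on either strand, without a claim that a factor binds there.
Cd274: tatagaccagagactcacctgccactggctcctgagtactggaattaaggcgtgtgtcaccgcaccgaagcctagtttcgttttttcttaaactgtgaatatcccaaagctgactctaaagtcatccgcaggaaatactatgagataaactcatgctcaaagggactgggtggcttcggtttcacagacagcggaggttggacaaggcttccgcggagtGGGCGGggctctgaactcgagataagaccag
Vsir: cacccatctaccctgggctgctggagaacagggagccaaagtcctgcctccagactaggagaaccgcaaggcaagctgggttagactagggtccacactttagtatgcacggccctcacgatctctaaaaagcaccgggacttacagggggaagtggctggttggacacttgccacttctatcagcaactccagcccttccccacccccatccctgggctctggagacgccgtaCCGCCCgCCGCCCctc
Cd274 holds 1 GC box and Vsir holds 2, a motif found in 32.7% of the 32851 promoters of this length. An interferon-stimulated response element (GAAA, any 2 bases, GAAA), a gamma-activated site (TTCNNNGAA) and a κB site (GGG, any 2 bases, TTTCC) were searched on both strands. None of the 6 members' stretches matched any of them, while 2.98%, 7.02% and 1.41% of all promoters did, in that order. This says only that these letters are not in these windows.

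The first question was what LPS does to these genes in each genotype. In KO samples 4 members passed edgeR's quasi-likelihood test with Benjamini-Hochberg adjustment over all 15857 genes at 0.05, 2 higher and 2 lower, against 28.3% of all genes (13.1% higher and 15.2% lower). In WT the same 4 passed, against 30.3% of all genes (14.8% higher and 15.5% lower). The median log2 fold change of the 10 members was -0.28 in KO and 0.03 in WT, beside -0.02 and -0.01 over all genes tested.

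**Figure D1:**
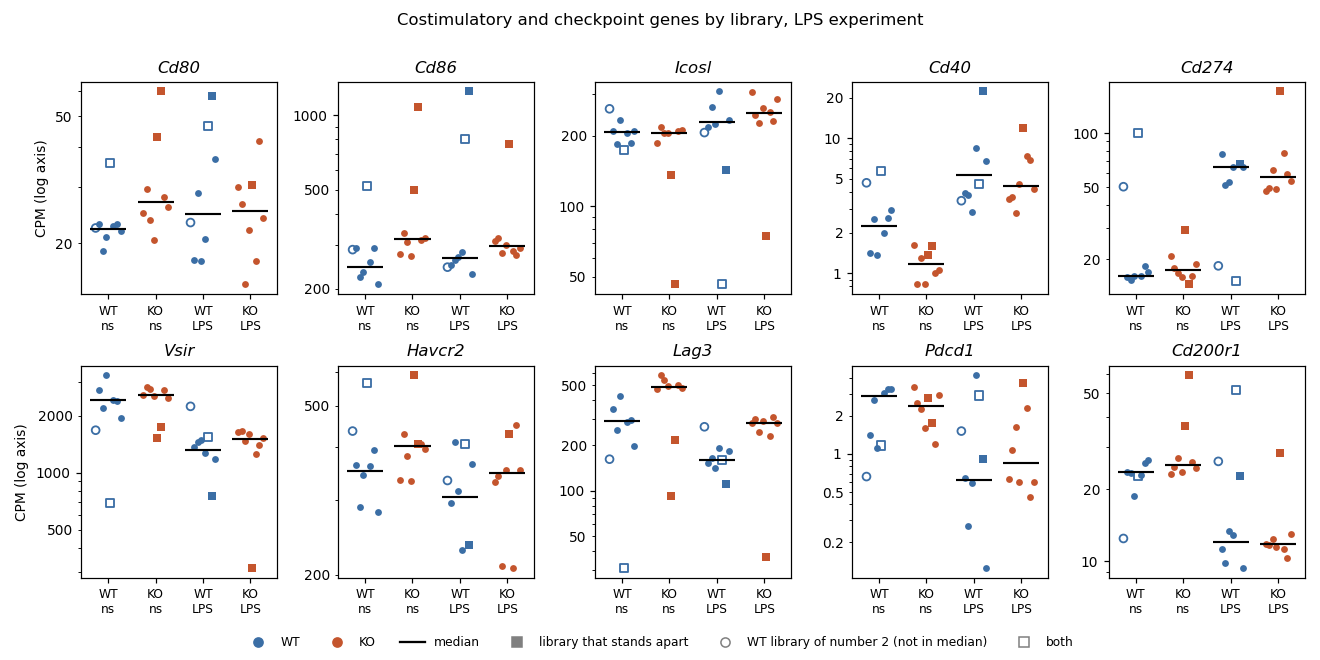
Level of each gene in CPM (log axis) in every library of the LPS experiment, by labelled group, with WT in blue and KO in orange. Squares are the 6 libraries that stand apart, open symbols the 4 WT libraries of number 2, and bars the median without the open symbols. Cd274 lies at 14.6 to 29.05 CPM in ns and at 47.7 to 169.9 CPM in LPS libraries of KO mice, and the open symbols of its WT groups lie near the levels of the other label.

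Among the activating ligands, which bind CD28 and ICOS on T cells, none passed the test in either genotype. Cd80 ran from 20.5 to 59.7 CPM (median 26.997) in KO ns and from 14.9 to 41.7 CPM (median 25.3) in KO LPS, and in WT from 19.0 to 22.98 CPM (median 22.2) at ns and from 17.7 to 57.9 CPM (median 24.7) with LPS, with overlapping groups in both. Its log2 fold change was -0.26 ± 0.21 in KO (adjusted p = 0.402) and 0.39 ± 0.25 in WT (adjusted p = 0.236). Without the libraries that stand apart, the highest Cd80 was 29.5 CPM in KO ns and 36.6 CPM in WT LPS, while that of KO LPS and WT ns stayed the same. Cd86 ran from 271.5 to 1078 CPM (median 316.5) in KO ns and from 273.8 to 763.2 CPM (median 295.8) in KO LPS. In WT it ran from 208.1 to 291.4 CPM (median 244.5) at ns and from 228.8 to 1248 CPM (median 264.4) with LPS. The high values of Cd86 were in the libraries that stand apart: without these, its log2 fold change was -0.01 ± 0.08 in KO and 0.07 ± 0.09 in WT.

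Icosl, the ligand of the costimulatory receptor ICOS, ran from 46.6 to 218.3 CPM (median 205.3) in KO ns and from 74.3 to 306.3 CPM (median 248.5) in KO LPS. In WT it ran from 185.0 to 232.2 CPM (median 207.0) at ns and from 142.7 to 308.6 CPM (median 228.7) with LPS. The lowest value of each KO group was a library that stands apart, and the KO groups overlapped through these. Its log2 fold change of 0.42 ± 0.26 in KO and 0.18 ± 0.30 in WT missed the threshold (adjusted p = 0.254 and 0.693). Without the 6 libraries it passed in both, at 0.36 ± 0.08 in KO (adjusted p = 0.000912) and 0.32 ± 0.09 in WT (adjusted p = 0.0046), so that 6 of 10 members then passed in each genotype, against 55.0% of all genes in KO and 54.6% in WT.

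Cd40, the receptor through which antigen-presenting cells receive T-cell help, rose with LPS. The gene lies at chr2:164897535-164913574 on the plus strand of GRCm39. It ran from 0.83 to 1.62 CPM (median 1.17) in KO ns and from 2.78 to 11.9 CPM (median 4.3997) in KO LPS, and the groups did not overlap. The log2 fold change in KO was 2.11 ± 0.29, a 4.32-fold rise (adjusted p = 2.3e-06). In WT it ran from 1.36 to 2.92 CPM (median 2.24) at ns and from 2.82 to 22.2 CPM (median 5.34) with LPS. Only WT LPS 4, at 2.82 CPM, lay below a WT ns library, and the rise was 3.36-fold (1.75 ± 0.33, adjusted p = 0.000182). Its highest value in each LPS group was a library that stands apart, and without these the rise was 4.00-fold in KO and 2.51-fold in WT.

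Cd274, which encodes the inhibitory ligand PD-L1 (chr19:29339428-29365495, plus strand of GRCm39), gave the lowest adjusted p of the members. In KO ns it ran from 14.6 to 29.05 CPM (median 17.4) and in KO LPS from 47.7 to 169.9 CPM (median 57.1). In WT ns it ran from 15.4 to 18.4 CPM (median 16.2) and in WT LPS from 51.9 to 76.4 CPM (median 65.0). In neither genotype did the groups overlap. The rise was 3.70-fold in KO (1.89 ± 0.20, adjusted p = 3.21e-08) and 3.83-fold in WT (1.94 ± 0.23, adjusted p = 2.95e-07). It held in each library set by itself, at 1.57 and 2.28 in KO and at 1.96 and 1.96 in WT on the log2 scale for sets 1 and 2. Without the 6 libraries that stand apart it was 1.70 ± 0.10 in KO and 1.96 ± 0.11 in WT.

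Vsir, which encodes the inhibitory ligand VISTA, fell with LPS. In WT ns it ran from 1944 to 3271 CPM (median 2409) and in WT LPS from 750.5 to 1493 CPM (median 1319), without overlap. Its log2 fold change was -1.005 ± 0.24 in WT (adjusted p = 0.00208). In KO it ran from 1525 to 2818 CPM (median 2556) at ns and from 314.1 to 1654 CPM (median 1499) with LPS, where KO ns 5, a library that stands apart, lay among the LPS libraries. The log2 fold change in KO was -0.83 ± 0.21 (adjusted p = 0.00287). The fall without the 6 libraries was -0.77 ± 0.08 in KO and -0.87 ± 0.09 in WT.

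Cd200r1, the inhibitory receptor through which neuronal CD200 restrains microglia, also fell. The gene lies at chr16:44586141-44615341 on the plus strand of GRCm39. In KO ns it ran from 23.2 to 59.6 CPM (median 25.2) and in KO LPS from 10.4 to 28.2 CPM (median 11.8), which is -1.13 ± 0.20 on the log2 scale (adjusted p = 7.48e-05). In WT it ran from 18.8 to 26.5 CPM (median 23.5) at ns and from 9.38 to 22.7 CPM (median 12.1) with LPS, a log2 fold change of -0.84 ± 0.23 (adjusted p = 0.00646). The overlap of the groups came in each genotype from 1 library that stands apart, KO LPS 5 at 28.2 CPM and WT LPS 7 at 22.7 CPM. With the 6 libraries left out Cd200r1 changed by -1.05 ± 0.09 in KO and -1.01 ± 0.10 in WT. Beside the falls of Vsir and Cd200r1, 7 of the 10 microglial markers were called lower in each genotype, against 15.2% of all genes in KO and 15.5% in WT. All 10 markers had log2 fold changes below 0 in both genotypes. Their summed level was 25704 to 43118 CPM in WT ns and 16964 to 25799 CPM in WT LPS, and 33734 to 52663 CPM in KO ns and 21208 to 27045 CPM in KO LPS. Their part in the falls was not tested.

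**Figure D2:**
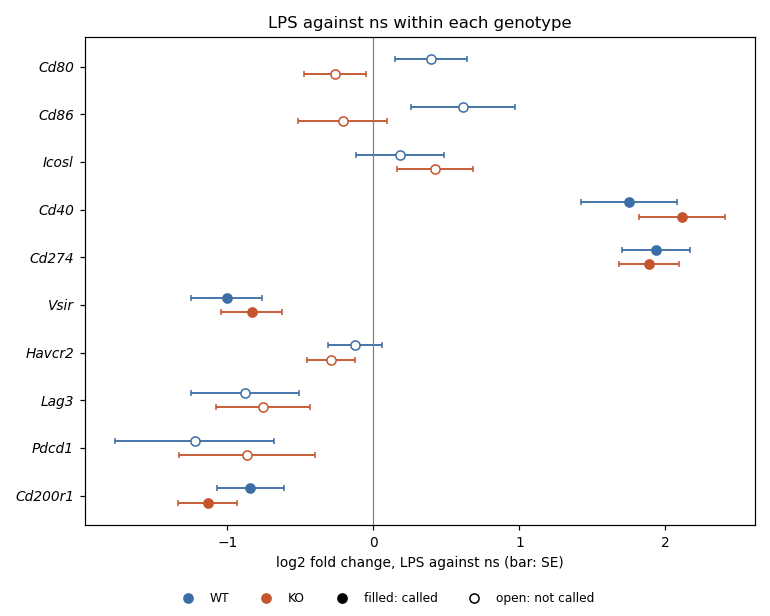
Log2 fold change of LPS against ns for each gene in WT (blue) and KO (orange), with bars for the SE and filled points where the adjusted p-value is under 0.05. Cd40 and Cd274 lie between 1.75 and 2.11, Vsir and Cd200r1 between -1.13 and -0.83, and the other 6 genes are open in both genotypes.

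The other inhibitory receptors did not pass the test in the fit of all samples. Havcr2, which encodes TIM-3, ran from 333.2 to 589.6 CPM (median 400.8) in KO ns and from 207.4 to 449.8 CPM (median 347.1) in KO LPS, which is -0.29 ± 0.16 on the log2 scale (adjusted p = 0.198). In WT it ran from 280.6 to 392.3 CPM (median 351.4) at ns and from 228.3 to 411.0 CPM (median 304.9) with LPS. There its log2 fold change was -0.13 ± 0.19 (adjusted p = 0.656), and the groups overlapped in both genotypes. Pdcd1, which encodes PD-1, was low throughout, from 1.19 to 3.40 CPM (median 2.38) in KO ns and from 0.461 to 3.63 CPM (median 0.853) in KO LPS. In WT it ran from 1.12 to 3.28 CPM (median 2.86) at ns and from 0.125 to 4.19 CPM (median 0.618) with LPS, where WT LPS 5 was highest and the groups overlapped. Its log2 fold change was -0.87 ± 0.47 in KO (adjusted p = 0.179) and -1.22 ± 0.54 in WT (adjusted p = 0.0890).

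Lag3, an inhibitory receptor that binds MHC class II, lay lower with LPS, but the call depended on the 6 libraries. In WT ns it stood at 199.3 to 422.0 CPM (median 288.3) and in WT LPS at 111.6 to 193.5 CPM (median 160.0), without overlap, with a difference of -0.88 ± 0.37 on the log2 scale (adjusted p = 0.0733). In KO ns it stood at 92.7 to 583.2 CPM (median 488.8) and in KO LPS at 36.6 to 306.8 CPM (median 282.2), a log2 fold change of -0.75 ± 0.32 (adjusted p = 0.0814). The 2 low KO ns libraries, KO ns 5 and KO ns 6, and the low KO LPS library, KO LPS 5, all stand apart. Without the 6 libraries, KO ns ran from 474.8 to 583.2 CPM and KO LPS from 231.5 to 306.8 CPM, and Lag3 fell in both genotypes (-0.85 ± 0.12, adjusted p = 3.45e-06, and -0.81 ± 0.14, adjusted p = 2.66e-05).

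The 2 library sets gave unlike numbers of calls. In set 1, 7 members passed in KO, where 44.9% of all genes did, and 6 in WT, where 42.6% did: the 4 named above with Lag3 and Pdcd1 lower in both and Icosl higher in KO. In set 2, which holds the 6 libraries, Cd274 and Cd40 alone passed in each genotype, against 4.65% of all genes in KO and 3.62% in WT. There Vsir had log2 fold changes of -0.83 ± 0.43 in KO and -1.03 ± 0.50 in WT, and Cd200r1 of -1.10 ± 0.39 and -0.75 ± 0.45, close to those over both sets.

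With the WT libraries of number 2 in their labelled groups, 0 members and 0 of all genes (0%) were called in WT by edgeR's quasi-likelihood test, with 2 members and 3605 genes at an unadjusted p under 0.05. Cd274 stood at 50.5 and 100.6 CPM in WT ns 1 and WT ns 5, near or above the level of the WT LPS libraries, and at 18.4 and 15.2 CPM in WT LPS 1 and WT LPS 6, at the level of WT ns. Vsir stood at 1677 and 690.7 CPM in WT ns 1 and WT ns 5 and at 2241 and 1548 CPM in WT LPS 1 and WT LPS 6. As labelled, the log2 fold changes in WT were 0.76 ± 0.37 for Cd274, 1.13 ± 0.33 for Cd40, -0.62 ± 0.25 for Vsir and -0.19 ± 0.27 for Cd200r1.

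The response to LPS was then compared between the genotypes. None of the 10 members passed the test of the genotype-by-LPS interaction, and none did so at an unadjusted p under 0.05. Over all genes edgeR's quasi-likelihood test called 0 (0%), 756 had an unadjusted p under 0.05, and DESeq2 called 3 genes, none of them a member. The interaction was -0.05 ± 0.30 on the log2 scale for Cd274, 0.36 ± 0.43 for Cd40, 0.17 ± 0.32 for Vsir and -0.29 ± 0.30 for Cd200r1. The largest in size were those of Cd86 at -0.83 ± 0.47 and Cd80 at -0.66 ± 0.33, which came to -0.09 ± 0.12 and -0.21 ± 0.27 without the 6 libraries.

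Partners and signalling mediators of the members were counted from 2 lists. Of 40 ligands and receptors that partner or resemble the members, 30 could be tested in the LPS experiment: 4 rose and 11 fell in KO, and 5 rose and 8 fell in WT, with medians of -0.13 and -0.38. The shares over all genes were 13.1% that rose and 15.2% that fell in KO, and 14.8% and 15.5% in WT. Leaving out the 6 libraries, 9 rose and 12 fell in KO, and 8 rose and 14 fell in WT, in fits that called 55.0% and 54.6% of all genes. Cd28, the T-cell receptor for CD80 and CD86, fell in both (log2 fold change -3.85 in KO and -3.04 in WT), from means of 1.399 and 1.92 CPM. Btla, an inhibitory receptor, fell in both (-2.48 and -2.37), and Tnfsf18, which encodes GITR ligand, did so too (-2.20 and -2.09).

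In KO, Cd96 (-2.22) and Cd226 (-1.97) fell, both receptors for nectin-family ligands, while Pdcd1lg2, which encodes PD-L2, rose by 2.02 from a mean of 0.135 CPM. In WT, Cd200r3, a relative of Cd200r1, fell by 2.41, and Cd276, which encodes B7-H3, fell by 2.41 from a mean of 47.9 to 8.77 CPM. Tnfsf9, which encodes the ligand of 4-1BB, rose by 1.80 in WT. These 3 were called in KO in the same direction, while Cd96, Cd226 and Pdcd1lg2 were not called in WT. No partner was called in the genotype-by-LPS interaction. Beside these changes, the list of 12 T and NK cell markers summed to 60.4 to 111.5 CPM in WT ns and 27.4 to 122.0 CPM in WT LPS, and to 26.8 to 226.2 CPM in KO ns and 3.32 to 66.4 CPM in KO LPS. The 6 B cell markers summed to 418.7 to 493.6 CPM in WT ns and 85.2 to 169.2 CPM in WT LPS, and to 352.1 to 529.1 CPM in KO ns and 123.4 to 221.3 CPM in KO LPS. Their part in these changes was not tested.

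Of 25 mediators of signals through these receptors, 8 rose and none fell in KO (13.1% and 15.2% of all genes), and 7 rose and 2 fell in WT (14.8% and 15.5% of all genes). In KO the rises included those of the NF-κB subunit gene Nfkb2 at 1.51 ± 0.41, Birc3 at 1.19 ± 0.14, Relb at 1.19 ± 0.36, Traf1 at 1.17 ± 0.26 and Stat3 at 0.99 ± 0.35 on the log2 scale. In WT they included those of Birc3 at 1.38 ± 0.16, Nfkb2 at 1.33 ± 0.47, Relb at 1.18 ± 0.41 and Traf1 at 1.17 ± 0.29. The adaptor gene Traf5 (-0.88) and the kinase gene Fyn (-0.75) fell in WT. As background, Birc3 and Traf1 encode proteins that take part in signalling by receptors of the CD40 family. Leaving out the 6 libraries, 13 rose and 5 fell in KO, and 11 rose and 4 fell in WT, again beside 55.0% and 54.6% of all genes called.

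As a description, the genes whose levels over the 32 samples were most like those of the members were looked up by Pearson's r of log2 CPM. For Cd274 it was Ifih1, a sensor of viral RNA, with r = 0.978, followed by Kars with r = 0.971. For Cd40 it was Ifi211 with r = 0.943 and Cd69 with r = 0.928. For Lag3 it was Timp2 with r = 0.942, for Vsir Tmem55b with r = 0.979, for Cd200r1 Rgs2 with r = 0.9797, and for Cd86 Txndc12 with r = 0.985. The points share the library sets and the 6 libraries, which move all of these values.

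The second question was what loss of P2RY12 does to these genes. In the sex experiment Lag3 was the 1 member of 10 called when the effect of KO was averaged over the sexes, where 0.432% of all genes were called and 0.419% were called higher. Lag3 stood at 248.7, 151.4, 205.6 and 147.2 CPM in male WT samples 1, 3, 4 and 5. In male KO samples it stood at 330.9, 332.5, 283.4, 306.1 and 304.6 CPM. Every male KO sample was above every male WT sample.

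In females Lag3 stood at 208.1, 171.5, 236.1 and 223.6 CPM in WT samples 1, 2, 3 and 5. In KO samples it stood at 311.6, 339.1, 273.0, 240.0 and 271.0 CPM, and again every KO sample was above every WT sample of its sex. Lag3 lies at chr6:124881322-124888668 on the minus strand of GRCm39, and no other gene in the table overlaps it.

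Averaged over the sexes, Lag3 was 1.504-fold higher in KO (0.59 ± 0.10, adjusted p = 0.00866). That all 10 KO samples lay above every WT sample of their sex describes the same samples as the test. How many of all genes separate in this way was not counted. Taken by sex, Lag3 was 1.66-fold higher in males (0.73 ± 0.14, adjusted p = 0.164) and 1.37-fold higher in females (0.45 ± 0.14, adjusted p = 0.370), and neither passed by itself. In males 0 members and 0.00946% of all genes were called, with 3 members and 2171 of 31709 genes at an unadjusted p under 0.05. DESeq2 called Lag3 there (adjusted p = 0.00919). In females 0 members and 0.164% of all genes were called, with 1 member and 1655 of 31709 genes at an unadjusted p under 0.05. DESeq2 called 0 members in females.

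**Figure D3:**
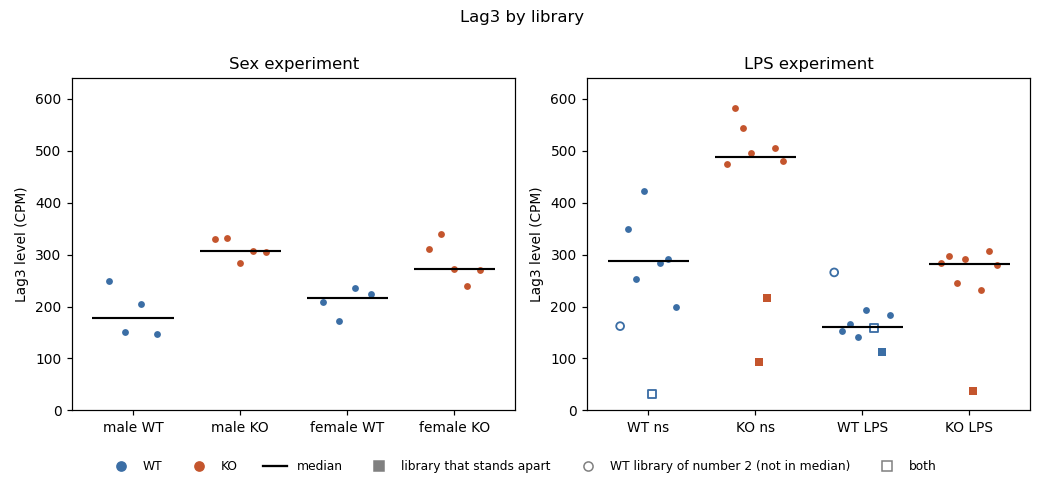
Lag3 level in CPM in every library of both experiments, by group, with WT in blue, KO in orange and bars for the median. Squares are the libraries that stand apart and open symbols the WT libraries of number 2. Male and female KO samples lie at 240.0 to 339.1 CPM and WT samples at 147.2 to 248.7 CPM, and in the LPS experiment the KO libraries that lie low are squares.

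Markers of other cells were set beside this result. All 7 neutrophil markers had lower values in KO (median log2 fold change -1.88), none of them called and all 7 at an unadjusted p under 0.05, as were 2860 of all 31709 genes. The marker values were as follows. The sums of the 7 markers reached 41800 CPM in male WT 5 and 24636 CPM in female WT 2, against 636.4 to 6676 CPM in the other 16 samples, and these 2 samples had the lowest Lag3 of their groups. Without both, Lag3 was 0.50 ± 0.09 higher in KO on the log2 scale (adjusted p = 0.00491). The T and NK cell markers summed to 66.8 to 146.0 CPM in male WT, 75.8 to 107.3 CPM in male KO, 70.3 to 184.4 CPM in female WT and 99.1 to 349.3 CPM in female KO samples. In females all 12 had higher values in KO (median log2 fold change 0.55) and in males 1 of 12 did (median -0.24), with none of the 12 called in either. Cd3e, 1 of the 12, stood at 0.0493 to 1.65 CPM in all 18 samples, where the whole list summed to 66.8 to 349.3 CPM. The part of these cells in the Lag3 result was not tested.

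In the LPS experiment the effect of KO on Lag3 had the same direction. The 6 KO ns libraries that do not stand apart had 474.8 to 583.2 CPM, above all 6 WT ns samples at 199.3 to 422.0 CPM, while KO ns 5 at 92.7 CPM and KO ns 6 at 216.6 CPM lay below or among these. The 7 KO LPS libraries other than KO LPS 5 had 231.5 to 306.8 CPM, above all 6 WT LPS samples at 111.6 to 193.5 CPM. Over all samples the log2 fold change of KO against WT was 0.47 ± 0.35 at ns (adjusted p = 0.634) and 0.60 ± 0.35 with LPS (adjusted p = 0.904), so that no member was called, against 0.0883% and 0.0946% of all genes. At an unadjusted p under 0.05 there were 2 members and 1415 of 15857 genes at ns, and 0 members and 957 genes with LPS. DESeq2 called 0 members in either. The comparisons at ns and with LPS share their samples with the comparisons of LPS against ns above. With the WT libraries of number 2 in their labelled groups, the log2 fold change of Lag3 was 0.76 ± 0.36 at ns and 0.50 ± 0.36 with LPS, again not called.

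Without the 6 libraries Lag3 was called in both, as the 1 member of 10. It was then 1.69-fold higher at ns (0.76 ± 0.13, adjusted p = 0.00456), where 0.364% of all genes were called, and 1.64-fold higher with LPS (0.71 ± 0.13, adjusted p = 0.0129), where 0.282% were called. In library set 1 it was 1.81-fold higher with LPS (0.86 ± 0.15, adjusted p = 0.0317), where 0.165% of all genes were called, and 1.53-fold higher at ns (0.61 ± 0.15, adjusted p = 0.247), where 0.127% were called. In set 2 it was 0.35 ± 0.64 at ns and 0.46 ± 0.64 with LPS on the log2 scale, not called, against 0.00615% and 0% of all genes. Leaving the 6 libraries out was chosen after they had been seen to differ.

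The other members did not pass the test between the genotypes. In the sex experiment Cd86 was 0.19 ± 0.07 higher on the log2 scale averaged over the sexes (adjusted p = 0.469), with 388.8 to 397.0 CPM in male KO and 262.8 to 386.9 CPM in male WT samples. Without male WT 5 and female WT 2, which have the lowest Cd86 of their groups, this was 0.09 ± 0.05. Cd274 was 0.17 ± 0.06 (adjusted p = 0.458), Cd80 0.12 ± 0.07 (adjusted p = 0.659) and Havcr2 0.09 ± 0.08 (adjusted p = 0.864). Icosl at -0.00 ± 0.06, Vsir at 0.01 ± 0.07 and Cd200r1 at -0.09 ± 0.07 lay nearest to 0.

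Cd40 and Pdcd1 were the lowest members in CPM in the sex experiment, with Cd40 at 0.85 to 3.76 CPM and Pdcd1 at 1.06 to 3.41 CPM over the 18 samples. Cd40 was 0.17 ± 0.28 and Pdcd1 0.11 ± 0.19 on the log2 scale. At ns in the LPS experiment Cd40 stood lower in KO, at 0.83 to 1.62 CPM against 1.36 to 2.92 CPM in WT, a log2 fold change of -0.78 ± 0.31 (adjusted p = 0.480). The direction differed between the experiments, and neither passed.

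**Figure D4:**
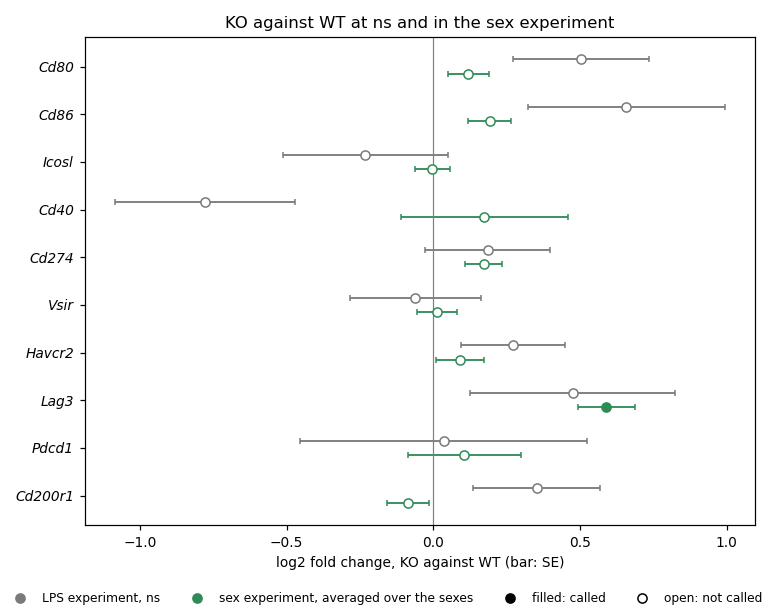
Log2 fold change of KO against WT for each gene at ns in the LPS experiment (grey) and averaged over the sexes in the sex experiment (green), with bars for the SE and filled points where the adjusted p-value is under 0.05. Lag3 in the sex experiment, at 0.59, is the one filled point, and the SEs at ns are wider for every gene.

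Vsir in the sex experiment needs a caution about what was counted. It lies at chr10:60182630-60266073 on the plus strand of GRCm39, inside Cdh23 on the opposite strand, and the table gives each gene its whole span. Cdh23 had 5321063 counts there and Vsir 5197634, and their levels ran together over the 18 samples (Pearson's r = 0.999). Reads of the pair cannot be told apart in that table. In the table of the LPS experiment Cdh23 had 41465 counts and Vsir 1997720, far fewer for Cdh23 than for Vsir.

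Of the 2 lists, 1 of 38 partners tested was called between the genotypes in the sex experiment and 0 of 25 mediators. Cd83, a surface molecule of activated antigen-presenting cells, was 0.42 ± 0.09 higher in KO on the log2 scale (adjusted p = 0.0331). Its mean was 134.5 CPM in male KO and 101.7 CPM in male WT, and 155.9 CPM in female KO and 115.8 CPM in female WT samples. In the LPS experiment no partner and no mediator was called between the genotypes at ns or with LPS, and without the 6 libraries 1 mediator was called lower in KO in each.

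The last question was whether sex changes any of this. None of the members was called between females and males averaged over genotypes, where 0.861% of all genes were. No member had an unadjusted p under 0.05, against 3926 of 31709 genes. DESeq2 called 0 members as well. The largest difference in size was that of Cd40 at 0.23 ± 0.28 on the log2 scale, and Lag3 was 0.02 ± 0.10 and Cd274 -0.11 ± 0.06. Of the partners Tnfrsf14, the receptor for LIGHT and BTLA, was lower in females (-0.28 ± 0.06 on the log2 scale, adjusted p = 0.0181).

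The effect of KO was not called different between the sexes for any member. The sex-by-genotype interaction of Lag3 was -0.28 ± 0.19, and no member had an unadjusted p under 0.05. Over all genes 0% were called, with 879 at an unadjusted p under 0.05 and 0 called by DESeq2.

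**Figure D5:**
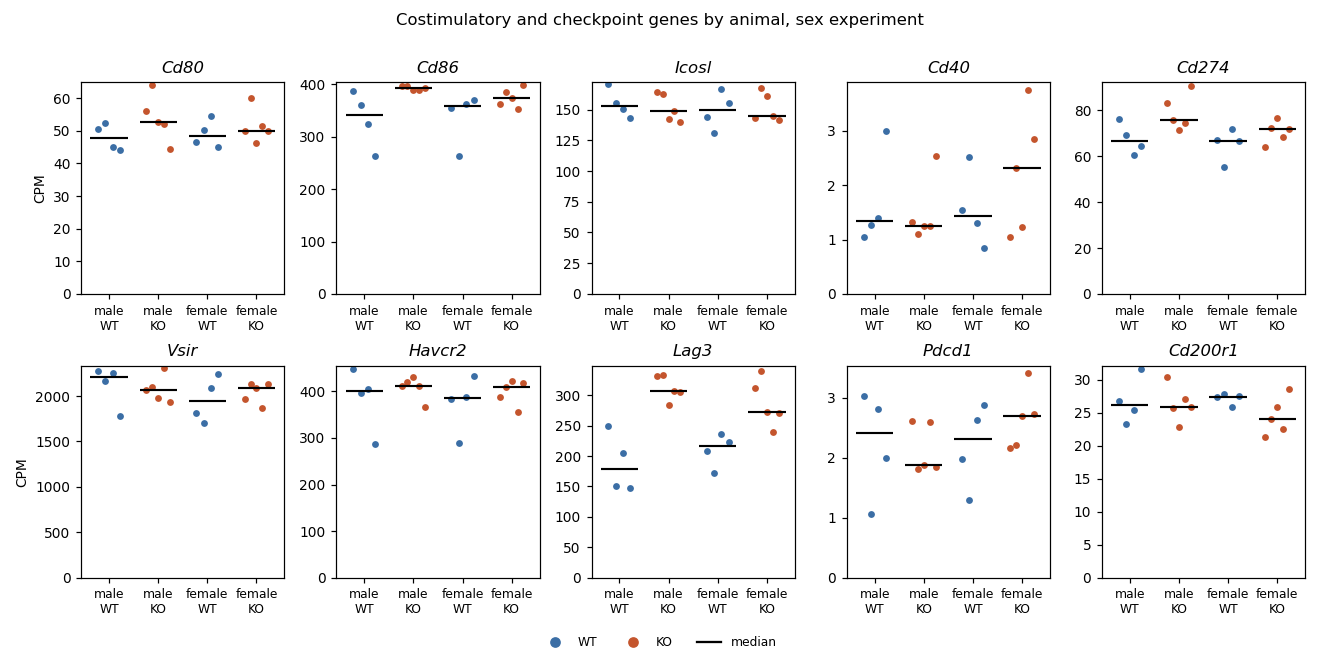
Level of each gene in CPM in every sample of the sex experiment, by sex and genotype, with WT in blue, KO in orange and bars for the median; each axis starts at 0. In the Lag3 panel both KO groups lie wholly above the WT group of their sex, with WT at 147.2 to 248.7 CPM and KO at 240.0 to 339.1 CPM. How many of all genes separate in this way was not counted.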

How the data were processed

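RNA of CD11b-positive cells was sequenced after poly(A) selection, per the labels' protocols. The authors deposited 2 tables of read counts per gene, made with STAR 2.6.1, featureCounts and the build GRCm39, per the submitters' processing notes. Of 57 labelled samples, 6 repeat libraries have no column and were not analysed here. Counts were tested as deposited with edgeR 4.0.16 (quasi-likelihood F test, TMM scaling, filterByExpr by group) and adjusted by Benjamini-Hochberg over all genes tested at 0.05. The LPS model held library set as a covariate and gave the WT libraries of number 2 groups of their own. Levels are CPM on TMM-scaled totals. The members were named by their list, other genes as the 6 largest called changes of each fixed list and as nearest genes by correlation. One gene that this rule names is not reported here. Members and lists were chosen with earlier results of these data known. The tests were checked on simulated counts. Alternatives were DESeq2 1.42.0, other filters and scalings, each library set, a replicate block and leaving out samples. Of the low counts, 79.0% to 89.2% were even in the sex experiment, against 39.7% to 45.6% in the LPS experiment, and how pairs of reads were counted is not given in the sources used here.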

Additional observations from a re-analysis of the deposited data

Results flagged for a closer look

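In 80 sets of values, each 1 gene in 1 group of 4 to 8 samples, 16 had a highest or lowest sample far from the others by Dixon's test, which chance gives in about 1 of 20. Of the 16, 13 were in KO LPS 5, KO ns 5, KO ns 6 and WT LPS 7, which stand apart. WT LPS 6 and WT ns 5, which also stand apart, were in groups of 2 samples and could not be flagged. KO LPS 5 was high for Cd274 (169.9 CPM), Cd86 (763.2 CPM) and Cd200r1 (28.2 CPM) and low for Icosl (74.3 CPM), Lag3 (36.6 CPM) and Vsir (314.1 CPM). KO ns 6 was high for Cd86 (1078 CPM) and Cd200r1 (59.6 CPM), and KO ns 5 for Cd274 (29.05 CPM) and Havcr2 (589.6 CPM). WT LPS 7 was high for Cd40 (22.2 CPM), Cd86 (1248 CPM) and Cd200r1 (22.7 CPM).

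The other 3 were in libraries that do not stand apart. Pdcd1 was high in WT LPS 5 (4.19 CPM), Cd40 was high in male KO 5 (2.54 CPM), and Cd86 was low in female WT 2 (263.6 CPM), one of the 2 samples with the highest sums of neutrophil markers.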

How the results depend on the processing

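Cd274 and Cd40 kept their rise with LPS in KO under every alternative run for them, and Lag3 its higher level in KO averaged over the sexes under 24 of 24 (log2 0.50 to 0.67, adjusted p 0.000108 to 0.0267). In WT, 0 members were called with the libraries of number 2 as labelled, where Icosl turned to -0.0219 on the log2 scale. LPS against ns gave 7 members in KO in set 1, 7 without numbers 2 and 3 of set 2 (8501 of 15810 genes called), and 2 in each genotype in set 2 only. KO against WT gave 1 member, Lag3, at ns and with LPS without the 6 libraries or without numbers 2 and 3 of set 2, and 1 with LPS in set 1. In males DESeq2 called 1, and leaving out a sample gave 0 to 1, with Lag3 called without male WT 1. Over all genes DESeq2 called 359 against 137 averaged over the sexes, 213 against 52 in females, 24 against 3 in males and 754 against 273 between the sexes. The labels do not say what samples of the same number share, and the main fit held no replicate block. In the LPS experiment the mean correlation was 0.205 over 35 pairs of the same number, against 0.0154 over 257 pairs of unlike number. In the sex experiment it was 0.00677 over 24 pairs, against -0.000769 over 97. With the replicate block 6 members were called with LPS in each genotype, Lag3 and Pdcd1 being added (5425 of 15857 genes called in KO and 5639 in WT, against 4481 and 4811), 1 averaged over the sexes and 0 elsewhere. The causes of these shifts were not tested. In the sex experiment the lowest count of a sample was 69 for Cd40 and 62 for Pdcd1.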
